A study of Mus musculus with 15 samples.

Results

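The 10 genes described here belong to the Polycomb repressor system and to the deubiquitinase that opposes it, and were followed through leukaemic and normal bone marrow of mice. They are Ezh1, Ezh2, Eed and Suz12 of Polycomb repressive complex 2 (PRC2), Bmi1, Cbx2, Cbx7 and Cbx8 of Polycomb repressive complex 1 (PRC1), and Asxl1 and Bap1 of the Polycomb repressive deubiquitinase (PR-DUB). They were chosen by symbol for their function, and each has 1 row among the 38315 genes of the table. All 10 were among the 18941 genes kept for testing.

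Transcripts were measured by sequencing of total RNA from 15 bone marrow samples. AML samples (acute myeloid leukaemia) were 7 samples of marrow from mice of the genotype NUP98-NSD1/FLT3-ITD. NUP98-NSD1 fuses a nucleoporin to a histone methyltransferase that acts on lysine 36 of histone H3, and FLT3-ITD is an activated form of a receptor tyrosine kinase of blood progenitors. The normal samples were wild-type marrow, 4 of whole marrow and 4 of the lineage-negative fraction, which lacks most cells that carry surface antigens of mature blood lineages. The labels give neither the promoters that drive the transgenes nor the age or sex of the mice, and they do not say whether a sample is 1 animal or a pool. P-values therefore measure the spread between these samples.

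PRC2 places methyl groups on lysine 27 of histone H3 (H3K27) through its catalytic subunit, EZH2 or EZH1, which needs EED and SUZ12 to act. PRC1 ubiquitinates histone H2A, and its canonical forms reach methylated H3K27 through a chromodomain protein of the CBX family, with BMI1 (PCGF4) or a related PCGF protein beside the RING ligase. BAP1, held in PR-DUB by ASXL1 or a relative, removes that ubiquitin. In blood, BMI1 is known for maintaining stem cells, EZH2 and ASXL1 are recurrently mutated in myeloid malignancy, and the target most often cited for repression by Polycomb is the Cdkn2a locus, which encodes inhibitors of the cell cycle.

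The promoters of Ezh2 and Ezh1 are shown first, because the ratio of these paralogs, which does not depend on the scaling of a library, separated AML from lineage-negative marrow. Each stretch runs from 250 bases before to 20 bases after the start of transcription in RefSeq on GRCm38.p6, and is written 5′ to 3′ on the strand of the gene. Capitals mark matches to the words searched, with ATTGG standing for CCAAT on the other strand.
Ezh2, chr6:47595011-47595280, minus strand: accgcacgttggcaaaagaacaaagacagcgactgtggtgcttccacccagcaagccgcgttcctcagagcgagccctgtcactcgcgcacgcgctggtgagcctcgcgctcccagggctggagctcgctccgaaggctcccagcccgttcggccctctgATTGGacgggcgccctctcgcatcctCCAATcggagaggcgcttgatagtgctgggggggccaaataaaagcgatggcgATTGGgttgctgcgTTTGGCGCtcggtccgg
Ezh1, chr11:101226444-101226713, minus strand: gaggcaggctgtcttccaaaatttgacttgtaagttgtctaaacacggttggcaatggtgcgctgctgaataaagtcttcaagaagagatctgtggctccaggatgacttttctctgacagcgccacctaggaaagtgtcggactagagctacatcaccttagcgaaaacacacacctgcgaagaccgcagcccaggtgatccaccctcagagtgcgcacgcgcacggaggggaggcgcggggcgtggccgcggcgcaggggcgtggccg
The words searched on both strands were CCAAT, the box bound by NF-Y, and the E2F words TTTCCCGC, TTTCGCGC, TTTGCCGC and TTTGGCGC. Of 32851 RefSeq promoters of 300 bases, 12289 (37.4%) held CCAAT and 744 (2.26%) held an E2F word. The Ezh2 promoter held CCAAT 3 times, at positions -90, -64 and -11, and TTTGGCGC at position 4, counted from the start of transcription. In the Ezh1 promoter no word was found. The other E2F word was TTTCCCGC at -219 in the Suz12 promoter, so 2 of the 9 promoters found held one, and 5 of 9 held CCAAT. The Ezh2 window of 300 bases had 31 CpG sites and 64.3% G and C, and the Ezh1 window 23 CpG sites and 59.3%, against medians of 7 and 52.7% over all promoters. No promoter entry was matched for Cbx2. These matches describe letters in a window and are not evidence of binding.

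The values are normalized counts, that is estimated reads per gene divided by 1 size factor per library, as deposited. Whole marrow had lower values over most genes. The difference of the typical gene, as the median over all genes tested on the log2 scale, was 0.67 between AML and whole marrow, 0.02 between AML and lineage-negative marrow, and 0.59 between the 2 normal groups (lineage-negative minus whole). After scaling by the trimmed mean of M values (TMM) these medians were 0.01, 0.05 and -0.10. The first whole-marrow library had a total of 10.2 M normalized counts (M, mega), against 17.9 to 19.3 M in the other 3, and held the lowest value of all 15 libraries for each of the 10 genes. A difference minus the median of all genes is called a relative difference here. Calls needed both an adjusted p under 0.05 and a log2 difference of 1 or more in size, in limma with Benjamini-Hochberg adjustment over the 18941 genes.

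The cell make-up of the groups differed. The sum of 8 neutrophil markers was 386784 to 1342280 normalized counts in AML, 415924 to 1120820 in whole marrow and 961 to 16313 in lineage-negative marrow. Summed erythroid markers were 366 to 28539 in AML, 736187 to 1817590 in whole marrow and 5650 to 45465 in lineage-negative marrow. All 8 erythroid and 7 of 7 B cell markers passed as lower in AML against whole marrow. There 5 of 6 T cell markers were called higher, and 0 with TMM scaling. Of 6 monocyte and macrophage markers 4 were called higher and 1 lower, and 2 and 1 with TMM scaling, with sums of 53597 to 87385 in AML against 12437 to 27393 in whole marrow. All 8 neutrophil markers were called higher in AML than in lineage-negative marrow, as were 5 of 7 B cell, 6 of 6 T cell and 6 of 6 monocyte and macrophage markers. Of the 7 progenitor markers, 6 were called lower in AML than in lineage-negative marrow, with sums of 5537 to 13228 against 27516 to 34668. All 5 eosinophil markers were called lower in AML than in either normal group. No gene of these lists was at 0 throughout a group. In bulk RNA, fewer cells of a type and less RNA per cell cannot be told apart, and the part of cell make-up in the results that follow was not tested.

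Among the 10 genes, only Cbx2 was called in the comparisons with AML. It was higher in AML than in whole marrow and lower in AML than in lineage-negative marrow. Bmi1, Cbx2 and Bap1 were called higher in lineage-negative than in whole marrow. All 3 comparisons come from 1 fit and share samples, so their counts are not independent. Of all genes, 27.3% were called higher in AML and 11.3% lower when whole marrow was the reference. The shares were 17.7% higher and 12.5% lower with lineage-negative marrow as the reference, and 33.1% and 17.2% between the normal groups. The members' 1 of 10 called higher against whole marrow and 1 of 10 called lower against lineage-negative marrow lay below or near these shares, and their 3 of 10 lay near the last. In the deposited scaling, 4 members in AML lay above whole marrow without overlap and 0 below, with 35.8% and 7.88% of all genes. Against lineage-negative marrow 1 lay above and 4 below, with 17.0% and 17.6%. In lineage-negative against whole marrow 7 lay above and 0 below, with 41.1% and 16.6%.

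With TMM scaling, 0 members were called in either comparison with AML, and Cbx2 alone in lineage-negative against whole marrow. The background was then 20.8% of all genes called in either direction with whole marrow as the reference of AML, 30% with lineage-negative marrow, and 10.8% higher and 24.8% lower between the normal groups. By the adjusted p alone, without the fold limit and in the deposited scaling, 7 members were above whole marrow in AML and 0 below, where 51.5% of all genes were above and 12% below. Against lineage-negative marrow 2 members were above and 4 below, with 23.5% and 21.6% of all genes. Between the normal groups 7 were above in lineage-negative marrow and 0 below, with 44.3% and 18.9% of all genes. TMM scaling changed the counts against whole marrow. In AML minus whole marrow 0 members were then above and 2 below, Ezh2 and Suz12, with 17.9% and 20.4% of all genes. Between the normal groups Bmi1, Cbx2 and Bap1 were above in lineage-negative marrow and Ezh1, Cbx7 and Cbx8 below, with 24.7% and 31.5%. Against lineage-negative marrow 2 were above in AML and 5 below, with 26.5% and 24.8%. The median of the 10 members, on the log2 scale, was 0.66 in AML minus whole, -0.30 in AML minus lineage-negative and 0.84 in lineage-negative minus whole marrow in the deposited scaling, and -0.02, -0.28 and 0.14 after TMM scaling.

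**Figure D1:**
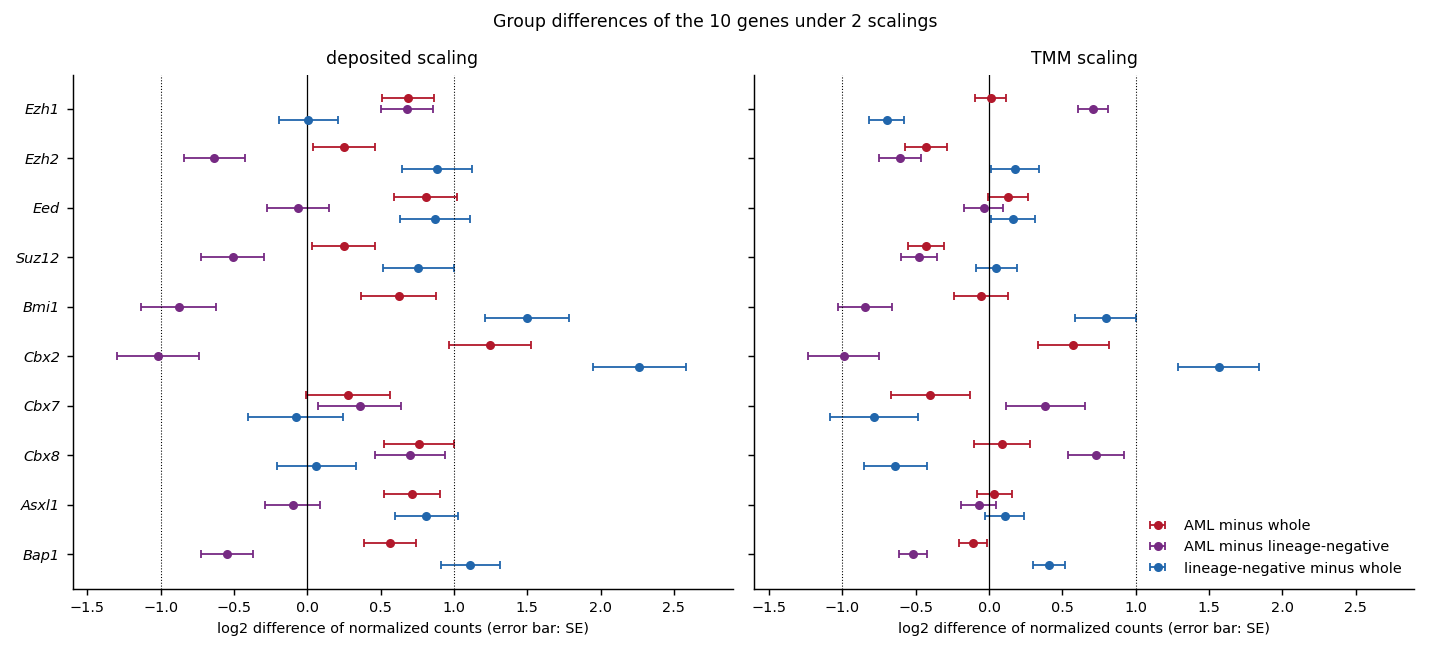
Log2 difference of normalized counts between groups for each of the 10 genes, with its standard error, in the deposited scaling (left) and after TMM scaling (right). Dotted lines mark a difference of 1 in either direction. The differences between AML and lineage-negative marrow lie at nearly the same place in both panels (Cbx2 at -1.02 and -0.99), while those against whole marrow lie lower on the right (Cbx2 at 1.25 and 0.57 for AML).

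Ezh2, the main H3K27 methyltransferase of dividing cells (ENSMUSG00000029687; chromosome 6, 47507073 to 47572275 on the minus strand, as given in the table), had 2216, 2453, 2614 and 2648 normalized counts in the 4 lineage-negative libraries. AML ranged from 1056 through a median of 1749.5 to 1976, and whole marrow had 821, 1499, 1502 and 1753. Every AML library thus lay below every lineage-negative library, while AML and whole marrow overlapped. The log2 difference of AML from lineage-negative marrow was -0.63 ± 0.21 (SE), with an adjusted p of 0.0186 in limma, which is under the fold needed for a call. Against whole marrow it was 0.25 ± 0.21 (adjusted p = 0.305, limma), and -0.43 after TMM scaling (adjusted p = 0.0262).

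Ezh1, the paralog with weaker methyltransferase activity that is retained in resting cells (ENSMUSG00000006920; chromosome 11, 101081941 to 101117289, minus strand), had the opposite order of AML and lineage-negative marrow. It had 884, 1178 and 1281 normalized counts at the lowest, median and highest AML library. Lineage-negative marrow had 663, 672, 688 and 706, and whole marrow 444, 757, 764 and 825. AML lay above both normal groups without overlap, and the normal groups overlapped. Of all genes, 35.8% in AML lay above whole marrow without overlap and 17.0% above lineage-negative marrow. AML exceeded lineage-negative marrow by 0.68 ± 0.18 on the log2 scale (adjusted p = 0.00381, limma), and TMM scaling gave 0.71 (adjusted p = 2.12e-05). The excess over whole marrow was 0.69 ± 0.18 (adjusted p = 0.00251, limma), but 0.02 relative to all genes and 0.01 after TMM scaling.

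The ratio of the paralogs within a library does not depend on its size factor. Ezh2 over Ezh1 was 1.51 ± 0.378 (SD, n = 7) in AML, 1.99 ± 0.228 (n = 4) in whole marrow and 3.64 ± 0.320 (n = 4) in lineage-negative marrow. Per exonic base these ratios were 1.68, 2.21 and 4.06. The highest AML value, 2.05, was below the lowest lineage-negative value, 3.22. The log2 ratio was lower in AML than in lineage-negative marrow by 1.31 (difference -1.31), with p = 0.00303 in an exact two-sided permutation test over 330 splits, the smallest p this design allows, and an adjusted p of 0.0273 over 18 tests. Lineage-negative marrow exceeded whole marrow by 0.88, with all 4 libraries above all 4, but the exact permutation p of 0.0286 is the smallest that 4 against 4 can give and was 0.0735 after adjustment. Against whole marrow the AML ratio differed by -0.44 (exact permutation p = 0.0636, adjusted 0.143). Leaving out AML replicate 2 or 6, or lineage-negative replicate 2, raised the adjusted p of AML against lineage-negative marrow to 0.0571, 0.0571 and 0.0750 (exact permutation). The differences were then -1.36, -1.31 and -1.31, and every AML library left still lay below every lineage-negative library. Fewer libraries leave fewer splits, which raises the smallest p this test can give.

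Ezh2 is known to be transcribed most in dividing cells, so proliferation genes are given beside it. Of 15 such genes, 6 were called lower in AML than in lineage-negative marrow (12.5% of all genes). They were the replication helicase subunits Mcm2, Mcm3, Mcm4, Mcm5, Mcm6 and Mcm7, at -1.03 to -1.52. All 6 were also called with TMM scaling (30% of all genes in either direction). The same 6 were called higher in lineage-negative than in whole marrow (33.1% of all genes). With TMM scaling Mcm6 alone was called higher (1.01, with 10.8% of all genes), and the other Mcm genes were at 0.61 to 0.92. Rrm2, also of the 15, was then called lower in lineage-negative than in whole marrow, at -1.01 (24.8% of all genes). The mitotic genes Mki67, Ccnb1 and Cdk1 were at -0.30, -0.31 and -0.35 against lineage-negative marrow and were not called. The summed level of the 15 was 40800.1 to 97187 in AML, 47099.7 to 100897 in whole marrow and 105048 to 126346 in lineage-negative marrow. AML replicate 3, with the lowest Ezh2, had the lowest sum. Replicate 6 had the next lowest Ezh2 (1273) but a sum of 73208. Replicate 4 had the next lowest sum (65454) with an Ezh2 of 1854, above the AML median. Against whole marrow 0 of the 15 were called in AML. With TMM scaling 3 were called lower there (20.8% of all genes in either direction). Their median over the 15 was then -0.69, against 0.01 over all genes. The part of proliferation in the Ezh2 values was not tested.

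**Figure D2:**
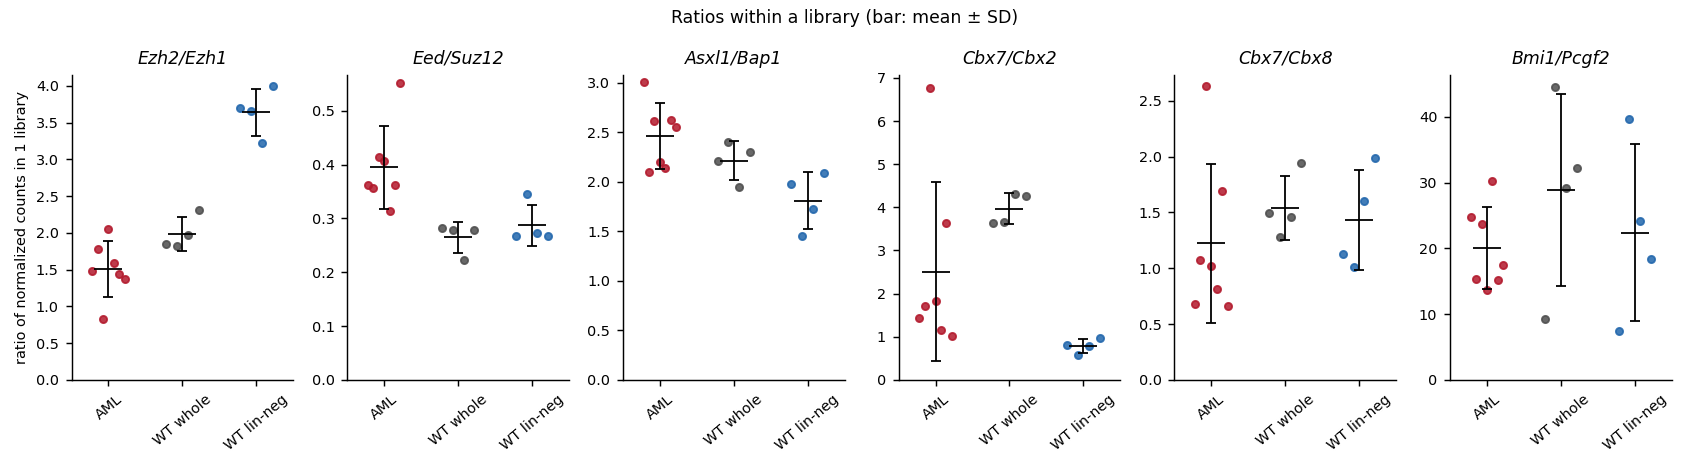
Ratio of the normalized counts of 2 genes within each library, for 6 pairs; points are libraries, the bar and whiskers the mean and SD of 7 AML, 4 whole-marrow and 4 lineage-negative libraries. Ezh2 over Ezh1 is highest in lineage-negative marrow (3.22 to 3.99), and Eed over Suz12 is highest in AML (0.313 to 0.551).

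Eed, the subunit that binds methylated H3K27 and stimulates the enzyme (ENSMUSG00000030619; chromosome 7, 89603862 to 89630191, minus strand), had 894 at the lowest, 1003 at the median and 1308 at the highest AML library. Lineage-negative marrow had 823, 1048, 1084 and 1425 normalized counts, so these groups overlapped, with a log2 difference of -0.06 ± 0.21 (95% interval half-width 0.44, adjusted p = 0.832, limma). Whole marrow had 331, 624.7, 752 and 764, all below AML, and the log2 difference of 0.81 ± 0.21 (adjusted p = 0.00285, limma) became 0.13 after TMM scaling. A lncRNA gene on the opposite strand, E230029C05Rik, overlaps Eed at means of 56.1, 34.3 and 20.96 normalized counts in AML, whole and lineage-negative marrow.

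Suz12, the scaffold that binds the histone chaperone subunits (ENSMUSG00000017548; chromosome 11, 79883932 to 79924949, plus strand), did not follow Eed. Its AML values ran from 2161 through 2649 to 3281, and the lineage-negative libraries had 3082, 3929, 3980.2 and 4133. Of the 7 AML libraries, 6 lay below all 4. The log2 difference was -0.51 ± 0.22 (adjusted p = 0.0614, limma), and -0.48 after TMM scaling (adjusted p = 0.00343). Whole marrow had 1177, 2703, 2740.2 and 2808, overlapping AML, and the difference of 0.25 ± 0.22 (adjusted p = 0.320, limma) turned to -0.06 without whole-marrow replicate 1 and to -0.43 after TMM scaling.

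The ratio of Eed to Suz12 within a library was 0.395 ± 0.0765 (SD, n = 7) in AML, 0.265 ± 0.0286 (n = 4) in whole marrow and 0.288 ± 0.0381 (n = 4) in lineage-negative marrow. All 7 AML libraries lay above all 4 whole-marrow libraries, by 0.56 on the log2 scale (exact permutation p = 0.00303, adjusted 0.0273). Against lineage-negative marrow, 6 of 7 lay above all 4, by 0.44, with an exact permutation p of 0.0152 and an adjusted p of 0.0655. Without AML replicate 1, 2 or 6 the adjusted p against whole marrow was 0.0571 (exact permutation), and the removal of replicate 3 of whole marrow gave 0.0655. The differences were then 0.58, 0.58, 0.58 and 0.48, and the AML libraries left still lay above all whole-marrow libraries. As above, fewer splits raise the smallest p this test can give.

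Bmi1, the PCGF subunit of canonical PRC1 (ENSMUSG00000026739; chromosome 2, 18681829 to 18691440, plus strand), had 628.1, 827, 1107 and 1259 normalized counts in lineage-negative marrow. AML ran from 392 through 494 to 619, below all 4. Whole marrow had 159, 396, 418 and 427, of which the highest lay above the lowest AML library. Lineage-negative marrow was called higher than whole marrow, at 1.5 ± 0.29 on the log2 scale (adjusted p = 0.000159, limma), 0.91 relative to all genes. TMM scaling gave 0.80, under the fold needed. The difference of AML from lineage-negative marrow was -0.88 ± 0.26 (adjusted p = 0.00831, limma), and -1.06 without lineage-negative replicate 1, past the fold needed. AML against whole marrow was 0.62 ± 0.26 (adjusted p = 0.0388, limma) and -0.05 after TMM scaling.

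Pcgf2 (Mel18), the closest relative of Bmi1 and its alternative in PRC1, was the rarer of the pair in every library. Its mean was 27.1 ± 8.11 (SD) in AML, 13.3 ± 3.28 in whole marrow and 51.8 ± 22.7 in lineage-negative marrow. Per exonic base, Bmi1 exceeded it 17.8, 25.6 and 19.9 times. The ratio ranged from 13.6 to 30.2 in AML and from 7.44 to 39.7 in lineage-negative marrow, and none of its 3 group differences passed the exact permutation test (smallest adjusted p = 0.584).

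Cbx2 (ENSMUSG00000025577; chromosome 11, 118913788 to 118922096, plus strand), a chromodomain subunit that compacts nucleosomes, varied most between the groups. Lineage-negative marrow had 334, 419, 451 and 479 normalized counts. AML ran from 104 through 235 to 319, below all 4, and whole marrow had 58.3, 87.7, 96.5 and 111. AML replicate 6 fell within the range of whole marrow. Cbx2 was called lower in AML than in lineage-negative marrow, at -1.02 ± 0.28 (adjusted p = 0.00567, limma), and higher in AML than in whole marrow, at 1.25 ± 0.28 (adjusted p = 0.000844, limma). Lineage-negative against whole marrow gave 2.27 ± 0.32 (adjusted p = 6.23e-06, limma), 1.68 relative to all genes and 1.57 after TMM scaling, called under both scalings.

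Both calls with AML depended on the settings. Against lineage-negative marrow the difference was -0.99 after TMM scaling and ranged from -1.12 to -0.86 when 1 library was left out. It fell short of the fold without AML replicate 1 (-0.99), 3 (-0.93) or 6 (-0.86) and without lineage-negative replicate 2 (-0.95) or 3 (-0.98), and the adjusted p was at most 0.0220 in these 5. Against whole marrow TMM scaling brought the difference to 0.57 with an adjusted p of 0.0726.

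Cbx8 (ENSMUSG00000025578; chromosome 11, 118927131 to 118931795, minus strand), a neighbouring paralog whose annotated span ends 5034 bases from that of Cbx2 in the table, had another order of groups. AML ran from 223 through 383 to 482 normalized counts. The lineage-negative libraries had 164, 221, 269.7 and 302, and the whole-marrow libraries 143, 243, 259 and 277. AML replicate 6 overlapped both normal groups, and the other 6 AML libraries lay above both. The log2 difference was 0.70 ± 0.24 against lineage-negative marrow (adjusted p = 0.0224, limma) and 0.73 after TMM scaling. Against whole marrow it was 0.76 ± 0.24 (adjusted p = 0.00967, limma) and 0.09 after TMM scaling.

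Cbx7, the CBX protein known in stem and lymphoid cells (ENSMUSG00000053411; chromosome 15, 79800008 to 79855320, minus strand), was called in none of the 3 comparisons and varied most within AML. AML values were 259.6 at the lowest, 378 at the median and 969 at the highest library, replicate 3. The next highest was 490.1. Lineage-negative marrow had 273, 326, 340.4 and 353, and whole marrow 213, 354, 377 and 472, and all 3 groups overlapped. The log2 differences of AML were 0.36 ± 0.29 from lineage-negative marrow (adjusted p = 0.330, limma) and 0.28 ± 0.29 from whole marrow (adjusted p = 0.406, limma), with 95% intervals of ± 0.60 around each. Without AML replicate 3 they were 0.15 and 0.07, and without whole-marrow replicate 1 the second was 0.05. After TMM scaling they were 0.38 and -0.40. Lineage-negative minus whole marrow was -0.08 (adjusted p = 0.841, limma), and -0.78 after TMM scaling (adjusted p = 0.0351). Cbx7 overlaps Apobec3 on the opposite strand, at means of 1660, 1385 and 2780.3 normalized counts in AML, whole and lineage-negative marrow. The strand used in counting is not given in the sources used here, so the Cbx7 values are uncertain.

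The ratio of Cbx7 to Cbx2 was 2.51 ± 2.07 (SD, n = 7) in AML, 3.97 ± 0.363 in whole marrow and 0.786 ± 0.167 in lineage-negative marrow. Lineage-negative libraries, at 0.571 to 0.977, lay below all AML libraries, at 1.01 to 6.76, and below all whole-marrow libraries, at 3.65 to 4.30. The log2 ratio of AML exceeded that of lineage-negative marrow by 1.37 (exact permutation p = 0.0182, adjusted 0.0655). Lineage-negative against whole marrow differed by -2.35, at the smallest p of 4 against 4, 0.0286 (exact permutation, adjusted 0.0735). Neither passed the adjustment. The ratio of Cbx7 to Cbx8 gave no difference that passed (smallest adjusted p = 0.341, exact permutation).

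Counted per exonic base over the summed level of Cbx2, Cbx6, Cbx7 and Cbx8, Cbx2 and Cbx6 held more of the total in lineage-negative marrow than in AML. Cbx2 held 17.01 ± 4.43% (SD, n = 7) of the 4 in AML, 11.1 ± 0.824% (n = 4) in whole marrow and 26.3 ± 2.96% (n = 4) in lineage-negative marrow. Cbx6, a CBX protein found in canonical PRC1, held 24.3, 26.9 and 43.2%. In lineage-negative marrow the shares of Cbx2 (22.6 to 29.1%) and Cbx6 (41.1 to 46.5%) lay above all AML libraries (9.72 to 21.6% and 18.2 to 27.2%). Cbx8 held 35.5 ± 4.45% in AML, 33.4 ± 4.27% in whole marrow and 17.1 ± 2.26% in lineage-negative marrow, where its 4 libraries (14.4 to 19.0%) lay below all 7 of AML (28.97 to 41.6%). Cbx7 held 23.3, 28.7 and 13.4%, and its AML range of 14.4 to 43.1% overlapped both normal groups. These shares depend on no size factor and were not tested.

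**Figure D3:**
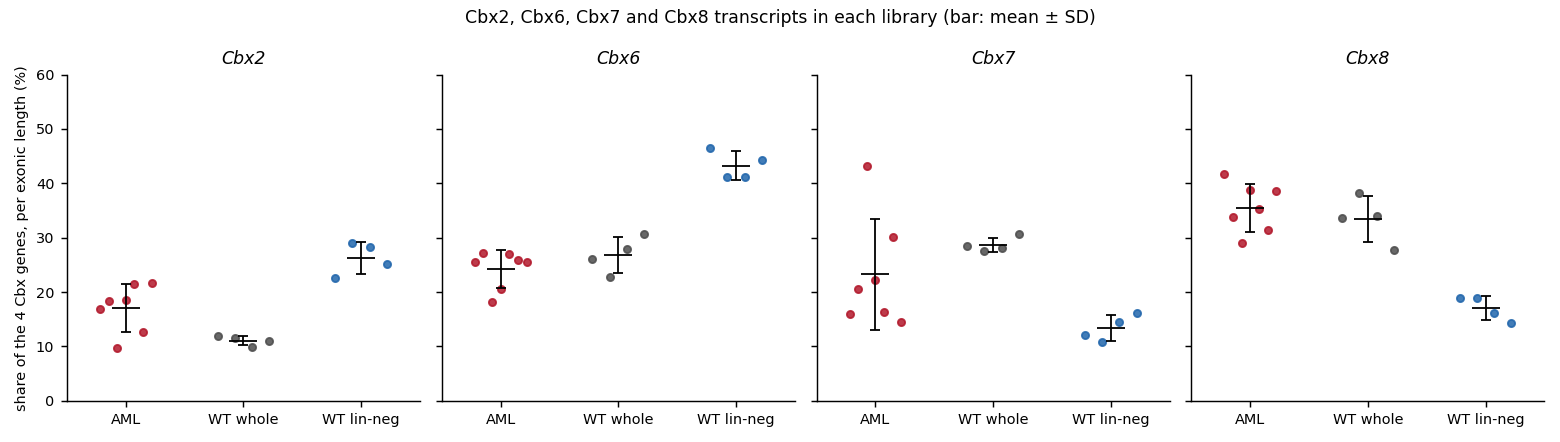
Share of each of 4 CBX genes in their summed normalized counts per exonic length, in percent, for each library; the bar and whiskers are the mean and SD. Lineage-negative libraries hold more Cbx2 and Cbx6 and less Cbx8 than AML libraries, and AML replicate 3 stands out for Cbx7 at 43.1%.

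Asxl1, the PR-DUB cofactor (ENSMUSG00000042548; chromosome 2, 153187749 to 153245927, plus strand), had similar levels in AML and lineage-negative marrow. AML ran from 2801 through 3111 to 4128 normalized counts, and the lineage-negative libraries had 3106, 3124, 3425 and 4162. The groups overlapped, with a log2 difference of -0.10 ± 0.19 (95% interval half-width 0.39, adjusted p = 0.696, limma). Whole marrow had 1221, 2154, 2328 and 2379.7, all below AML, and AML exceeded it by 0.71 ± 0.19 (adjusted p = 0.00301, limma), 0.04 relative to all genes and 0.03 after TMM scaling.

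Bap1, the catalytic ubiquitin hydrolase (ENSMUSG00000021901; chromosome 14, 30973407 to 30981901, plus strand), was lower in each AML library than in each lineage-negative library. AML ran from 1181 through 1294 to 1456, with an SD of 0.09 on the log2 scale, the narrowest of the 10 genes in AML, where genes with a mean of at least 100 had a median SD of 0.28. The lineage-negative libraries had 1637, 1809, 2107 and 2142 normalized counts, and whole marrow had 553, 990.2, 1009.6 and 1106. The difference of AML from lineage-negative marrow was -0.54 ± 0.18 on the log2 scale (adjusted p = 0.0167, limma), and -0.52 after TMM scaling (adjusted p = 0.000225). Lineage-negative marrow was called higher than whole marrow at 1.11 ± 0.20 (adjusted p = 8.44e-05, limma). The call was lost without whole-marrow replicate 1 (0.89) and after TMM scaling (0.41, adjusted p = 0.00426).

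Asxl1 over Bap1 within a library was 2.46 ± 0.332 (SD, n = 7) in AML, 2.22 ± 0.196 in whole marrow and 1.81 ± 0.285 in lineage-negative marrow. All 7 AML libraries, at 2.10 to 3.01, lay above the 4 lineage-negative libraries, at 1.45 to 2.09. The log2 difference was 0.45, with an exact permutation p of 0.00606 and an adjusted p of 0.0364. The adjusted p was 0.0571 (exact permutation) without AML replicate 2, 3, 4 or 6 and was also above the threshold without lineage-negative replicate 2. The differences were then 0.34 to 0.48, and the AML libraries left still lay above all lineage-negative libraries. With a library left out, fewer splits raise the smallest p this test can give. Against whole marrow AML differed by 0.15 (exact permutation p = 0.221, adjusted 0.341).

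**Figure D4:**
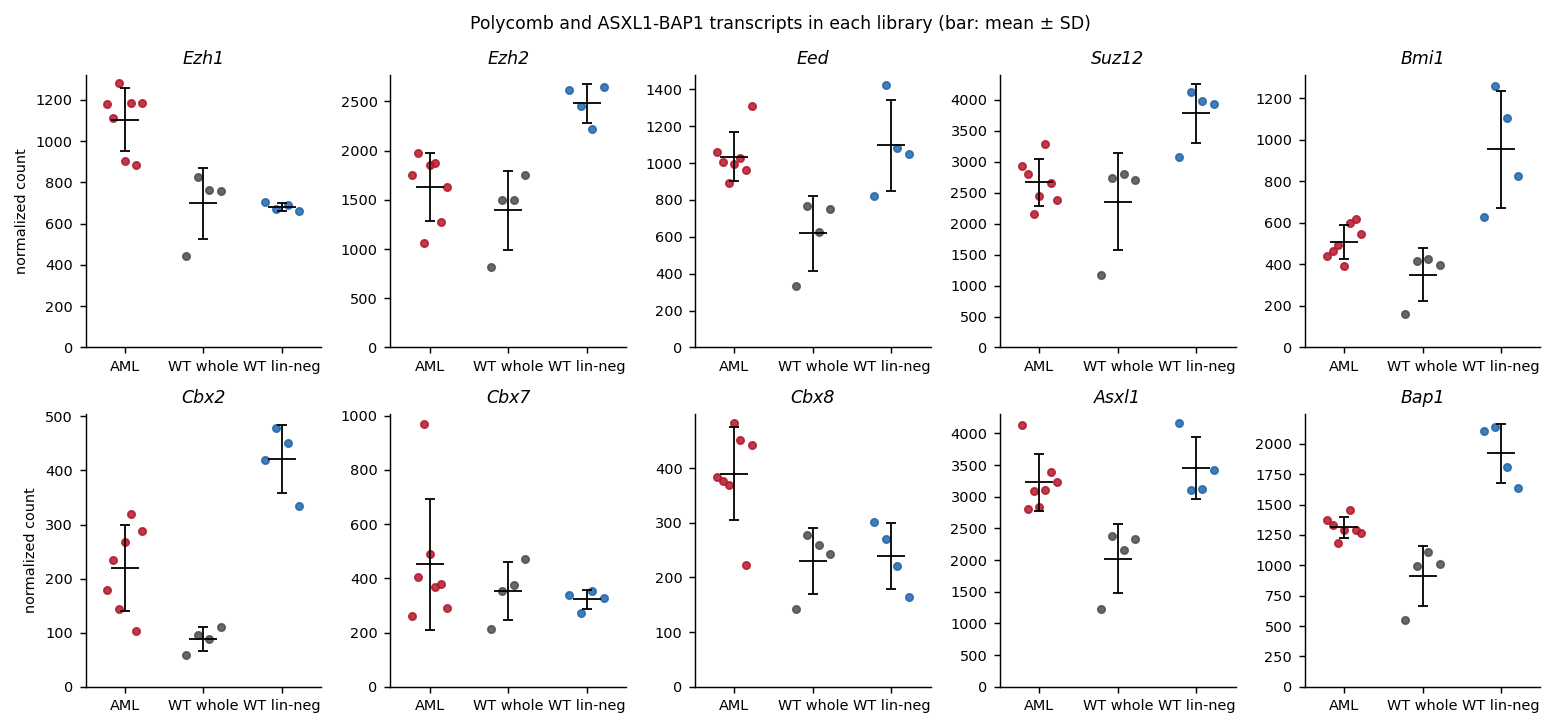
Normalized counts of the 10 genes in each library; points are libraries, the bar and whiskers the mean and SD of 7 AML, 4 whole-marrow and 4 lineage-negative (lin-neg) libraries. By mean, Ezh1, Cbx7 and Cbx8 are highest in AML (1104, 451.5 and 389.5), where Cbx7 and Cbx8 overlap both normal groups. Ezh2, Eed, Suz12, Bmi1, Cbx2, Asxl1 and Bap1 are highest in lineage-negative marrow, where Eed, Suz12 and Asxl1 overlap AML. The lowest whole-marrow point is replicate 1 in every panel.

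Compared per kilobase of exon, Suz12 had the highest mean level of the 10 in each group, at 539 ± 76.6 normalized counts per kilobase (SD) in AML, 477 ± 159 in whole marrow and 765 ± 95.9 in lineage-negative marrow. Asxl1 came next, at 434 ± 60.1, 271 ± 72.8 and 464 ± 66.4. In AML, Bap1 (280.5 ± 18.5), Eed (270.4 ± 34.3) and Ezh2 (244 ± 51.2) followed within their spread, then Ezh1 (148 ± 20.4), Bmi1 (128 ± 21.04), Cbx8 (106 ± 23.2), Cbx7 (69.6 ± 37.0) and Cbx2 (51.5 ± 18.7), of which each neighbouring pair overlapped within its SD. In lineage-negative marrow Bmi1 (240.4 ± 71.0) and Cbx2 (98.9 ± 14.7) stood above Ezh1 (91.7 ± 2.56), though Cbx2 and Ezh1 did not differ beyond their spread. Cbx2 had the lowest level in AML and whole marrow (20.7 ± 5.18), and Cbx7 in lineage-negative marrow (49.8 ± 5.43).

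For 5 members, the 3 genes with the most similar values were found among 10049 other protein-coding genes with a mean of at least 100, by the root mean square difference of centred log2 values over the 15 samples. For Ezh1 these were Rnf111, Ensa and Tnfaip8, at 0.124, 0.125 and 0.130 (median over all genes 0.57). For Ezh2 they were Rnaseh2b, Rhno1 and Rad51ap1, at 0.137, 0.139 and 0.150 (median 0.53). Bmi1 was nearest to Mrpl35, Fastkd5 and Snu13 (0.169 to 0.175), Cbx8 to Dgkd, Dstyk and Map3k5 (0.164 to 0.203), and Cbx7 less closely to Pde4b, Zbtb4 and Sesn3 (0.239 to 0.290). All libraries share their size factors across genes, which enters this measure.

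The other PRC2 genes were described by a list of 9, of which 8 were tested. Against whole marrow 4 were called higher in AML and 0 lower (27.3% and 11.3% of all genes). The median log2 difference was 0.87 against 0.67 over all genes. With TMM scaling 1 was called (20.8% of all genes in either direction). That gene was Epop, an elongin-binding PRC2 partner, at 2.22 ± 0.27 (adjusted p = 3.41e-06, limma), with means of 130.5, 26.9 and 194 normalized counts in AML, whole and lineage-negative marrow. Jarid2, which recruits PRC2 to target sites, and Phf19, a Polycomb-like protein, were at 1.24 and 1.15. Against lineage-negative marrow 1 of 8 was called higher and 0 lower (17.7% and 12.5% of all genes), with a median of -0.40 against 0.02.

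That gene was Phf1, another Polycomb-like protein, at 1.503 ± 0.21 (adjusted p = 6.98e-06, limma) and 1.53 after TMM scaling. Its 7 AML libraries had 383 to 696 normalized counts and its lineage-negative libraries 157 to 265, without overlap. In lineage-negative against whole marrow 5 of 8 were called higher and 0 lower (33.1% and 17.2% of all genes). Their median was 1.28 against 0.59, and Epop led at 2.75, before Phf19 at 1.65 and Rbbp7, a histone chaperone, at 1.64. With TMM scaling 1 was called higher and Phf1 lower at -1.69, with 10.8% and 24.8% of all genes. The untested gene was Ezhip, an inhibitor of PRC2, at 0 in all AML and lineage-negative libraries and at most 8.08 in whole marrow. Its whole-marrow mean of 3.29 was below that of the 1750 olfactory and vomeronasal receptor genes given below, 8.45. The part of that low-level signal in Ezhip was not tested.

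All 20 other PRC1 genes listed were tested. In AML against whole marrow 3 were called higher and 0 lower, with 27.3% and 11.3% of all genes (median 0.72 against 0.67 over all genes). They were the polyhomeotic gene Phc2 at 1.25, the CpG-island binder Kdm2b at 1.20 and the MBT-domain gene L3mbtl2 at 1.03. With TMM scaling 0 were called. Against lineage-negative marrow 4 were called lower and 0 higher under both scalings, with a median of -0.56 against 0.02. Of all genes 12.5% were called lower and 17.7% higher, and 30% in either direction with TMM scaling. The 4 partners were Scml2, a gene of the Sex comb on midleg family, at -2.43 ± 0.33 (adjusted p = 5.90e-06, limma), Pcgf6, of a variant PRC1, at -1.47, Auts2, a partner of variant PRC1, at -1.44, and Cbx6 at -1.20. Scml2 had 153 to 171 normalized counts in lineage-negative marrow, 15.9 to 61.4 in AML and 24.2 to 45.9 in whole marrow. In lineage-negative against whole marrow 13 of 20 were called higher and 0 lower, with 33.1% and 17.2% of all genes (median 1.30 against 0.59). The largest were Scml2 at 2.35, Kdm2b at 2.10 and L3mbtl2 at 1.99. With TMM scaling 7 were called higher, with 10.8% of all genes.

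The list of 9 PR-DUB partners had 2 genes called higher and 1 lower in AML against whole marrow (median 0.72 against 0.67). Of all genes 27.3% were called higher and 11.3% lower there. The forkhead factor Foxk1 was at 1.41 and the methyl-binding-domain gene Mbd6 at 1.13, and neither was called with TMM scaling. Asxl3, a relative of Asxl1 known mainly from the nervous system, passed as lower (adjusted p = 5.28e-06, limma). It had 16.4 to 33.2 normalized counts in whole marrow, was listed at 0 in 5 of 7 AML and all 4 lineage-negative libraries, and reached 6.17 in AML replicate 6. Beside it, 1750 olfactory and vomeronasal receptor genes averaged 8.45 normalized counts in whole marrow, 1.02 in AML and 0.393 in lineage-negative marrow, with the highest AML mean, 3.34, in replicate 6. The part of this low-level signal in Asxl3 was not tested.

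Against lineage-negative marrow 0 of 9 PR-DUB partners were called in limma, with 17.7% of all genes higher and 12.5% lower. By the adjusted p alone 2 were below (21.6% of all genes), Foxk2 at -0.64 and the host-cell factor gene Hcfc1 at -0.56. The median was 0.23 against 0.02, and 0 were called with TMM scaling (30% of all genes in either direction). In lineage-negative against whole marrow 5 were called higher, led by Hcfc1 at 1.28 and Foxk2 at 1.12, and Asxl3 lower (median 1.06 against 0.59). Of all genes 33.1% were called higher there and 17.2% lower. With TMM scaling 0 were called higher (10.8% of all genes).

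**Figure D5:**
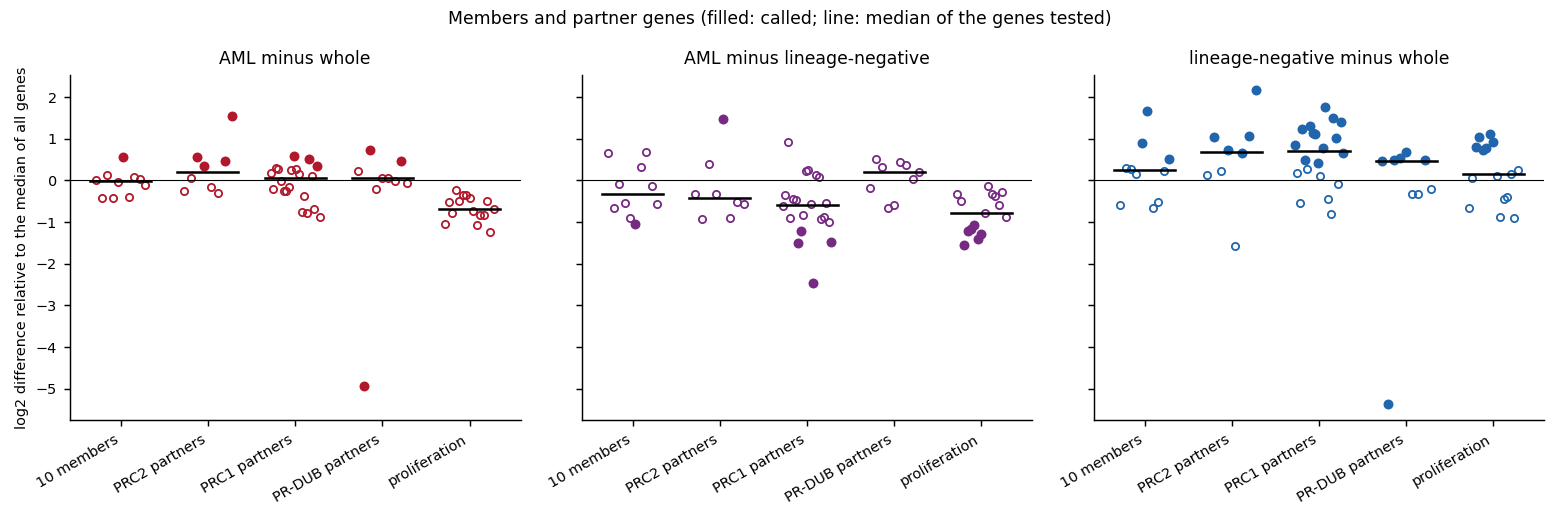
Log2 difference of the 10 members, their partner genes and 15 proliferation genes in the 3 comparisons, each minus the median of all genes tested; filled points were called and lines are medians. The PRC1 partners called lower in AML than in lineage-negative marrow lie below -1, with Scml2 lowest, and the 2 points near -5 are Asxl3 against whole marrow, whose place depends on the pseudocount.

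Of the enzymes that remove H3K27 methylation and the Cdkn2 genes, 3 of 5 were tested. Kdm6a and Kdm6b, the demethylases UTX and JMJD3, were at 0.87 (adjusted p = 0.00504, limma) and 0.94 (adjusted p = 0.0308) in AML against whole marrow and at 0.50 and 0.98 against lineage-negative marrow (adjusted p = 0.112 and 0.0344). Neither was called, but Kdm6b passed against lineage-negative marrow with TMM scaling. Uty, the copy of Kdm6a on the Y chromosome, passed as lower in AML against whole marrow (adjusted p = 0.0162). It was at 0 in 4 of 7 AML and 1 of 4 lineage-negative libraries, and at 1.69 in AML replicate 4. AML replicates 3 and 5 had 765 and 569 normalized counts of Uty, above whole marrow, at 235 to 430. The lineage-negative library without Uty, replicate 4, had the highest Kdm6a of its group, 1838, and the next was 1079. In AML, Kdm6a was 1397 and 1302 in replicates 3 and 5 and 1310 to 2111 in the others. The labels do not give the sex of the mice. The part of sex in the Uty call and in the Kdm6a values was not tested. Cdkn2a was at 0 in all 4 whole-marrow libraries, where 3 reads correspond to 2.69 to 4.09 normalized counts, at most at 2.72 in lineage-negative marrow and between 0 and 19.7 in AML. Cdkn2b was at 0 to 5.36 in whole marrow, 0 to 1.82 in lineage-negative marrow and 0.845 to 14.7 in AML. Neither Cdkn2 gene was kept for testing.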

How the data were processed

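Total RNA of 15 bone marrow samples was extracted with TRIzol and, per the labels, prepared with the TruSeq Stranded Total RNA kit. The deposited table holds a signal per gene and sample that was made before deposition: the authors divided estimated reads by 1 DESeq2 size factor of the poscounts type per library, per the name of the table. The submitters' processing notes name STAR, Partek, DESeq2 and mm10, with no role or version. Groups and replicate numbers came from the sample titles.

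Of 38066 gene identifiers found in the GENCODE annotation of GRCm38 (release M21), 37557 had the same span but 861 the same start, so gene positions are printed as in the table, with no build, and are not on the scale of the GRCm38.p6 promoter positions. Exonic lengths came from that annotation and promoters from RefSeq, which had 9 of the 10 members. The strand used in counting is not given in the sources used here, so overlapping genes are uncertain.

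In each library 82.2% to 87.1% of low values were whole multiples of 1 step, within a tolerance of 0.02 of a step, so whole reads were not recovered and no count test was the main test. Dividing totals by the step gave estimated depths of 11.4 to 17.2 M reads (M, mega) in whole marrow, 20.3 to 35.1 M in AML and 20.3 to 28.1 M in lineage-negative marrow, and 3 reads corresponded to 1.96 to 4.09 normalized counts. Floors cover counting error only.

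Genes with a normalized count of at least 10 in at least 4 samples entered 1 limma fit of 3 group means on log2(value + 1) (R 4.3.3 with limma 3.58.1, moderated by empirical Bayes with a trend, two-sided), so fold changes of low genes are understated. The fit was tested on simulated data that had no shift of all genes between groups. That test therefore does not cover the shift against whole marrow. Ratios within a library were compared by exact two-sided permutation tests of mean log2 ratios, adjusted over 18 tests. The alternatives were pseudocounts of 0.1 and 5, other filters, TMM and quantile scaling, fits of 2 groups, a replicate block, leaving out libraries and, chosen after seeing the data, voom on estimated reads.

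The members, the lists of partner, proliferation and cell marker genes and the tests were chosen with earlier results of these data known. The text names all members, Pcgf2 and the 3 genes most like 5 of the members. Of each partner list and comparison it names up to 3 called genes with the largest differences. Cbx6, the Mcm genes, Mki67, Ccnb1, Cdk1, Rrm2, the Cdkn2 genes, Ezhip, Kdm6a and Kdm6b were named in addition, after their values were seen. Of the partner genes, 1 is not reported here. Samples were treated as unpaired. The 12 same-numbered pairs had correlations of deviations of -0.29 to 0.17 (mean 0.01), against -0.24 to 0.25 for other pairs. Same-numbered whole and lineage-negative libraries were at 0.09, 0.17, -0.01 and -0.01. This check cannot decide whether those came from the same mice.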

Additional observations from a re-analysis of the deposited data

Results flagged for a closer look

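Of 30 pairs of a member and a group, 6 held a library far from the others of its group, by the gap to the nearest library as a share of the group's range. By chance about 1 in 20 groups is marked this way, but 5 of these 6 come from 1 library and are not independent. Whole-marrow replicate 1 stood apart for 5 genes and was the lowest each time, at 444 normalized counts of Ezh1, 1177 of Suz12, 159 of Bmi1, 1221 of Asxl1 and 553 of Bap1. Its total was 10.2 M normalized counts, against 17.9 to 19.3 M in its group, and of the 18941 genes tested it was the lowest of its group in 73.5% and stood apart below it in 12.8%. AML replicate 6 stood apart for Cbx8, at 223, and below its group in 1.90% of all genes tested. Of the table's genes, 7.12% were at 0 in whole-marrow replicate 1 and 23.6% in AML replicate 6, each the lowest share of its group.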

How the results depend on the processing

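Against whole marrow, results depended on the scaling. Members called in AML against whole marrow went from 1 to 0 with TMM scaling, quantile scaling and voom, and in lineage-negative against whole marrow from 3 to 1 with each. In AML against whole marrow, Ezh2, Suz12, Bmi1, Cbx7 and Bap1 turned to log2 differences of -0.43, -0.43, -0.052, -0.40 and -0.11 with TMM scaling, to -0.49, -0.49, -0.15, -0.48 and -0.18 with quantile scaling, and to -0.43, -0.43, -0.072, -0.41 and -0.11 with voom. Quantile scaling also turned Ezh1, Cbx8 and Asxl1, to -0.071, -0.026 and -0.039. In lineage-negative against whole marrow, Ezh1 and Cbx8 turned to -0.70 and -0.64 with TMM scaling, -0.72 and -0.70 with quantile scaling and -0.70 and -0.67 with voom. The median shift between groups under the deposited scaling moved with these reversals.

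In AML against lineage-negative marrow, members called went from 1 to 0 with TMM scaling, voom, and without AML replicates 5 and 6 together, and to 2 with the replicate block, which added Bmi1 at -1.04. The replicate block changed no other call. The ratio of Bmi1 to Pcgf2 turned to 0.017 with a pseudocount of 0.1. When 1 library was left out, members called against lineage-negative marrow ranged from 0 to 2 and ratios past the test from 0 to 4. Leaving out a library also raises the smallest p that the permutation tests of its group can give. Log2 differences that changed sign when 1 library was left out ranged from -0.058 to 0.36 for Suz12 in AML against whole marrow and from -0.19 to 0.073 for Eed in AML against lineage-negative marrow. In lineage-negative against whole marrow they ranged from -0.20 to 0.10 for Ezh1, -0.30 to 0.077 for Cbx7 and -0.15 to 0.23 for Cbx8. The log2 ratio of Bmi1 to Pcgf2 ranged from -0.45 to 0.34 in AML against lineage-negative marrow and from -0.78 to 0.13 between the normal groups, where that of Cbx7 to Cbx8 ranged from -0.32 to 0.0049. The cause of these changes was not tested. The 5 member differences called kept the call in 78 of 96 alternatives and lost it, with the same direction, in 18. The 25 that were not called turned sign in 32 of 504 alternatives and were called in 3.

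With 4 normal libraries a group, the smallest exact permutation p of lineage-negative against whole marrow is 0.0286. The ratios of Ezh2 to Ezh1 and of Cbx7 to Cbx2 were at this p, with an adjusted p of 0.0735. The depth behind each value is an estimate, and Pcgf2, Scml2, Asxl3 and the Cdkn2 genes are low enough that few reads decide their values.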

Other observations

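Within AML, replicates 3 and 6 differed from the other 5 libraries in several of these genes at once. They had the lowest Ezh2, at 1056 and 1273 normalized counts, the lowest Cbx2, at 143 and 104, and the lowest Scml2, at 15.9 and 20.98. Other members did not share this. Ezh1 was highest in replicate 3 (1281) and lowest in replicate 6 (884). Cbx7 was highest in replicate 3 (969) and at the AML median in replicate 6 (378). Bmi1 was at the AML median in replicate 3 (494) and highest in replicate 6 (619). Replicates 3 and 6 had the highest Cdkn2a, at 14.7 and 19.7 normalized counts, against 0 to 2.16 in the other 5, and the highest Cdkn2b, at 14.7 and 11.1, against 0.845 to 5.39. A count of 3 reads corresponds to 3.68 and 3.70 normalized counts in these libraries, so their Cdkn2 values are above that floor but low. Summed proliferation genes were 40800.1 in replicate 3 and 73208 in replicate 6, against 65454 to 97187 in the others. Summed T cell markers were highest in these libraries, at 3489 and 4884, against 816 to 2525 in the others. Replicate 3 also had the highest erythroid and B cell sums of AML, at 28539 and 6416, where replicate 6 had 3604 and 557. Replicate 6 also had the highest AML mean of olfactory and vomeronasal receptor genes, 3.34, where replicate 3 had 0.486. The pattern was noticed in these 7 libraries and was not tested, nor was the part of these cell markers in it.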
